A study of Mus musculus with 8 samples.

Results

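Mouse zinc finger genes with a symbol of the form Zfp and a number were examined as targets of Pax6 binding. A table of 26244 Pax6 sites, each 100 bp wide, assigned every site to a nearest gene, and the members were chosen by that symbol alone. They numbered 363 sites at 182 genes, out of 26244 sites at 10198 gene IDs. Pax6 binding was measured by chromatin immunoprecipitation and sequencing (ChIP-seq) in alphaTC1 cells, a mouse line derived from glucagon-producing pancreatic alpha cells. Both groups were treated with antisense oligonucleotides, either a scrambled control (control KD) or one directed at Paupar (Paupar KD). Paupar is a non-coding RNA whose gene lies beside Pax6. Each group had 2 Pax6 ChIP libraries, described in the labels as replicates, and 2 input libraries, which were not analysed here. All 4 ChIP libraries came from the same cell line, and nothing in the sources used here states its passage or clone. ChIP does not measure RNA, so the level of Paupar and of the Zfp proteins is not known here; sites were listed at the alpha-cell genes Gcg, Irx1, Irx2, Ttr and Pcsk2.

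Zfp is a mouse naming stem for proteins with zinc fingers, small loops held by a zinc ion that most often read DNA. Most mouse Zfp genes encode C2H2 zinc fingers, and many also carry a KRAB domain, which recruits the corepressor Trim28 and the methyltransferase Setdb1 to silence transposable elements, imprinted loci and other genes. KRAB zinc finger genes multiplied by tandem duplication and stand in clusters on several mouse chromosomes. A few Zfp proteins act elsewhere, such as Zfp36 (tristetraprolin), a CCCH protein that drives the decay of AU-rich messenger RNAs. Pax6, a paired-domain and homeodomain factor, is needed for islet endocrine cells.

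At promoters, 37 Zfp sites lay whole within a RefSeq promoter window, so that the DNA of the site could be read. Such a window ran from 250 bp before to 50 bp after a gene start (build GRCm38.p6, which shares coordinates with mm10). The first set of sites is shown because they share an element that Zfp143, a member itself, binds in its human form: the letters ACTACA, any 2 bases, then TCCC, on either strand. Capitals mark this element, and each sequence runs 5′ to 3′ along the gene. The element was looked for after the sequences had been seen.
Zfp383 (chr7:29908439-29908538, plus strand): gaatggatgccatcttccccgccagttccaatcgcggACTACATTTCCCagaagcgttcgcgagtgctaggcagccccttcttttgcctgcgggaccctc
Zfp661 (chr2:127584706-127584805, minus strand): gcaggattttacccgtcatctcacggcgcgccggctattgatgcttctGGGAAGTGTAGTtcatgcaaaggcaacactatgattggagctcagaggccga
Zfp444 (chr7:6172351-6172450, plus strand): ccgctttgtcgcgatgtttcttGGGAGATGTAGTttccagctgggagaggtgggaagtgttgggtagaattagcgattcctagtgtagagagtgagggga
Zfp189 (chr4:49521091-49521190, plus strand): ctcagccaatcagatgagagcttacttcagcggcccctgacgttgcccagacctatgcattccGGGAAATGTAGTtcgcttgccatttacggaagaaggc
Zfp260 (chr7:30095007-30095106, plus strand): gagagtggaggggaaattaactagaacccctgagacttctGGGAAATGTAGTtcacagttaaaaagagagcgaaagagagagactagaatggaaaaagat
Zfp458 (chr13:67269079-67269178, minus strand): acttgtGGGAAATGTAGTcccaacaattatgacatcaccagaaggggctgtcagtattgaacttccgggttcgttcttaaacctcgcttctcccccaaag

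A second set shows promoter sites without that element. Zfp281 and Zfp146 had the highest mean concentrations among the 37 (Zfp146 control KD 7.64, Paupar KD 6.84, FDR 0.115, per the authors' deposited table). At Zfp281 a summit was found in Paupar KD replicate 2 alone, at the 33.7th percentile of its list. At Zfp146 a summit was found in all 4 libraries. The others are the promoter of Zfp143 itself, Zfp317, and the part of the Zfp384 site inside its window. Signal at the Zfp384 site was lower after Paupar KD. Capitals in Zfp317 mark TTCACGC, read here on the opposite strand, the core letters of the Pax6 paired-domain motif.
Zfp281 (chr1:136624816-136624915, plus strand): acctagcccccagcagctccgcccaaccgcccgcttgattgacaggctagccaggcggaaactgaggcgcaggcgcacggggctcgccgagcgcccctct
Zfp146 (chr7:30169727-30169826, minus strand): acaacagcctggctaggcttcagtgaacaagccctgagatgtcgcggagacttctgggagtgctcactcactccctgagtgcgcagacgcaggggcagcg
Zfp143 (chr7:110061496-110061595, plus strand): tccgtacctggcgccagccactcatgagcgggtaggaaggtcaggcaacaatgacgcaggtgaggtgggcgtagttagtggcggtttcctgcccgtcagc
Zfp317 (chr9:19622170-19622269, plus strand): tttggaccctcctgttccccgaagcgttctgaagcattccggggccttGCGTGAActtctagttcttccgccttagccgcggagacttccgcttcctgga
Zfp384 (chr6:125008876-125008954, plus strand): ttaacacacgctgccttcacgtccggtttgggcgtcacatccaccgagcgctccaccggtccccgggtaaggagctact

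The Pax6 core letters TTCACGC were found on either strand in 1 of the 37 Zfp sites (2.7%), at Zfp317, and in 12 of the 1137 sites of all genes that lay whole in a promoter window (1.06%). The longer paired-domain form, TTCACGC followed by any base and TGA, which contains the core, was in 0 of either set. The homeodomain pair, TAAT, any 3 bases and ATTA, was in 0 of the Zfp sites and 1 of the 1137. These counts describe letters in 100 bp windows and do not show what Pax6 contacted. The Zfp143-type element was in 6 of the 37 Zfp sites (16.2%) and in 41 of the 1137 sites (3.61%). Over whole promoter windows it was in 53 of 370 windows of Zfp genes (14.3%) and in 595 of all 32851 windows (1.81%). Among Zfp windows it was in 34 of 137 with a Pax6 site within 1 kb of the start (24.8%) and in 19 of 233 without one (8.15%). The windows of other genes held it in 255 of 4096 with a site (6.23%) and in 287 of 28385 without one (1.01%). Of the 33 genes behind the 34 Zfp windows, 28 stood in clusters of Zfp genes, defined by distance as described below. Of the 150 Zfp genes with a promoter site within 3 kb, 102 stood in such clusters. These 150 are not a matched set, since they use a wider distance and include chromosome 18, whose windows were not used. The clustered share of the 116 genes of Zfp windows with a site is not given here. The element lay within 50 bp of the middle of the nearest site in 7 of the 34 Zfp windows (20.6%) and in 62 of the 255 windows of other genes (24.3%), with median distances of 90 bp and 104.5 bp. No test was made, since some genes have several windows and clustered genes may share descent, which was not checked here. The element was also chosen after the 37 Zfp sequences had been seen, so its share among them is no independent result. The Zfp windows with a site include windows that hold those same sequences.

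**Figure D1:**
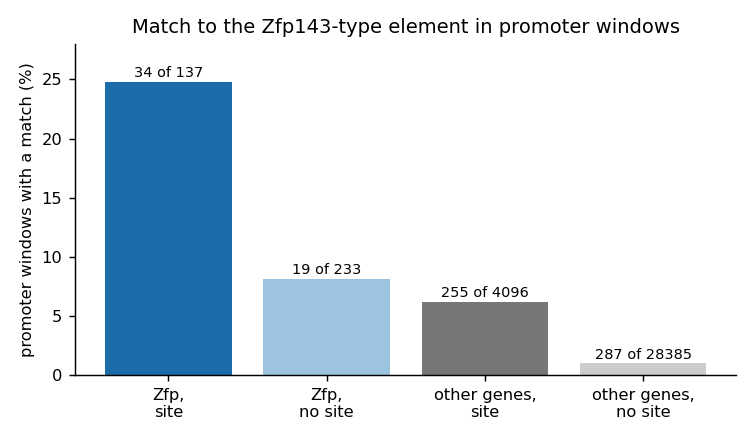
Bars give the percent of 300 bp RefSeq promoter windows that hold the Zfp143-type element on either strand, for Zfp genes and other genes, with or without a Pax6 site within 1 kb of the gene start, and the counts stand above the bars. The share is 24.8% in Zfp windows with a site and 8.15% in Zfp windows without one. It is 6.23% in other windows with a site and 1.01% in the rest. The element was chosen after sequences of Zfp sites had been seen.

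Other promoter letters were counted the same way in the windows, on both strands and whether or not they overlapped another motif. CCGGAAG, read by ETS factors, was in 26.3% of Zfp windows with a site, 19.3% of Zfp windows without one and 20.2% of all windows with a site. GGGCGG, the GC box of Sp and Klf factors, was in 37.2%, 48.5% and 53.6% of the same sets, and CCAAT in 46.7%, 49.4% and 44.2%. The NRF1 motif was in 6.57%, 9.87% and 7.61%. Zfp windows with a site had a median of 13 CpG dinucleotides and all windows with a site 17. None of these letters is specific to Pax6, and the figures are descriptions.

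Pax6 sites of Zfp genes lay at promoters more often than sites of the table as a whole. The authors' annotation put 173 of the 363 sites in promoters, within 3 kb of a start, or 47.7% (Clopper-Pearson 95% interval 42.4 to 52.9%), against 27.5% of all sites. The core promoter, within 1 kb, held 149 of them (41.0% against 19.4%). Introns held 93 Zfp sites (25.6% against 36.8%), distal intergenic sequence 71 (19.6% against 28.9%) and exons 16 (4.41% against 3.46%). No test was made of these shares. The interval takes sites as independent, which neighbouring sites are not, so it may be too narrow. A site overlapped the assigned start itself in 58 of the 173 promoter sites (33.5%), against 21.1% of all promoter sites, while 53 lay upstream and 62 downstream. Another gene started within 1 kb of 20 of the 164 Zfp promoter sites that could be checked (12.2%), against 11.5% of all such sites, so at these the bound gene is ambiguous. Sites outside promoters lay a median of 31.8 kb from the assigned start, against 21.7 kb for all such sites. An intron label did not always refer to the assigned transcript. Sites so labelled lay 73.8 kb upstream of the assigned Zfp281 start and 65.8 kb upstream of that of Zfp397.

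Most Zfp genes had a single site. There were 123 genes with 1 site, 31 with 2, 12 with 3 and 16 with 4 or more. A promoter site was present at 150 of the 182 genes, and the strongest site was in a promoter at 137. Zfp608, Zfp516, Zfp536 and Zfp217 together held 79 sites, or 21.8%, of which only 8 were in promoters; the other 284 sites were 58.1% promoter. Of 372 Zfp genes in the RefSeq gene table, 182 had a listed site (48.9%), and of 21896 protein-coding genes 8919 did (40.7%).

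Chromosome 7, which carries 91 of the 372 Zfp genes, held 100 Zfp sites at 60 genes, 63 of them in promoters. That was 27.5% of the members, against 7.32% of all sites on this chromosome. Chromosome 18 came next with 60 sites but only 7 genes, and 51 of these sites lay outside promoters. Chromosome 17 had 27 sites at 23 genes, of which 25 were in promoters, and chromosome 13 had 24 sites at 17 genes, of which 17 were. The chromosomes thus differed in kind: many genes with a promoter site each on 7, 13 and 17, and a few genes with many distal sites on 18.

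**Figure D2:**
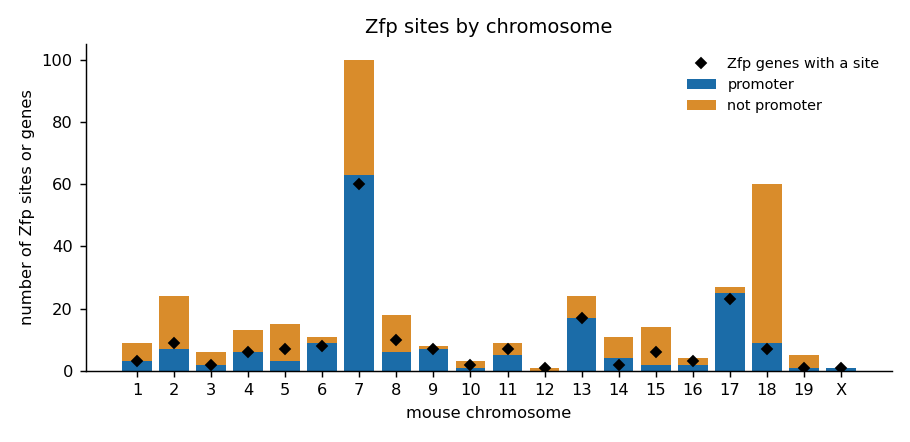
Stacked bars give the number of Zfp sites on each mouse chromosome, in promoters or not, and diamonds the number of Zfp genes with a site. Chromosome 7 has 100 sites at 60 genes, mostly in promoters, and chromosome 18 has 60 sites at 7 genes, mostly outside promoters.

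Chaining Zfp genes that lay within 500 kb of each other gave 33 clusters of at least 3 genes, with 225 genes in all. A site was listed at 109 of the clustered genes (48.4%) and at 73 of the 147 other Zfp genes (49.7%). Clustered genes held 140 sites, 114 of them in promoters (81.4%), while the others held 223 sites, 59 of them in promoters (26.5%). Clusters differed widely in how many genes were bound. Between Zfp84 and Zfp146 on chromosome 7, 12 of 15 genes had a site; its strongest, in intron 6 of 9 of Zfp568 (chr7:30009810-30009909), had concentrations of 9.43 (control KD) and 9.05 (Paupar KD) per the authors' deposited table (FDR 0.345). Zfp568 is a KRAB repressor of a placental promoter of Igf2. Another chromosome 7 group, from Zfp180 to Zfp526, had 12 of 14 genes with a site, the strongest at Zfp428 (7.32 and 6.61 per the authors' deposited table, FDR 0.634). On chromosome 17, 13 of 23 genes from Zfp160 to Zfp13 had a site, led by the Zfp51 promoter (7.78 and 6.81 per the authors' deposited table, FDR 0.359), and 9 of 11 from Zfp871 to Zfp414, led by Zfp763 (5.73 and 5.43 per the authors' deposited table, FDR 0.796). The chromosome 13 group from Zfp640 to Zfp273 had 9 of 20, led by the Zfp87 promoter (8.04 and 7.52 per the authors' deposited table, FDR 0.197).

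In the other clusters of 10 or more genes, a smaller share of the genes had a site. On distal chromosome 4, 1 of 16 genes between Zfp990 and Zfp933 had a site, at Zfp933 (4.65 and 4.78 per the authors' deposited table, FDR 0.946). The chromosome 6 group from Zfp786 to Zfp775 had 4 of 10, led by Zfp398 (7.90 and 7.09 per the authors' deposited table, FDR 0.0740), and the chromosome 7 group from Zfp553 to Zfp646 had 4 of 10, led by Zfp668 (8.18 and 7.55 per the authors' deposited table, FDR 0.112). In the 20 smaller clusters with a site, the strongest site ranged from 3.15 to 8.42 under control KD and from 3.52 to 7.50 under Paupar KD per the authors' deposited table. No site was listed in 5 clusters with 18 genes. Clustered Zfp genes can be near-identical copies, and the treatment of reads that map to several copies is not given in the sources used here, so both a listed site and its absence are uncertain in such clusters.

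Signal at Zfp sites spanned nearly the whole range of the table. Concentrations are the authors' log2 mean over the libraries of a group, with no value per library. Over the 363 sites the lowest, median and highest were -0.01, 4.82 and 9.90 in control KD and 0.55, 4.81 and 9.38 in Paupar KD per the authors' deposited table. By concentration, promoter sites were the higher class, with medians of 5.50 (control KD) and 5.20 (Paupar KD) per the authors' deposited table. Over all promoter sites these were 5.22 and 5.05. Sites outside promoters had medians of 4.145 and 4.325 per the authors' deposited table, against 4.08 and 4.30 over all such sites. Summits did not follow this order at high signal. All 4 libraries had a summit at 24.3% of Zfp promoter sites and 20.5% of Zfp sites outside promoters. In the highest quartile of mean concentration over all sites, the shares were 33.7% of Zfp promoter sites and 47.1% of all Zfp sites. For the whole table that quartile had 39.6% of promoter sites and 59.1% of all sites. Over the 359 sites above the floor of the scale, the 2 groups' concentrations correlated with Pearson's r = 0.80 across sites, a description only.

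The strongest Zfp site lay 50.7 kb upstream of Zfp648, in intergenic sequence (chr1:154150376-154150475), with 9.90 (control KD) and 9.38 (Paupar KD) per the authors' deposited table (FDR 0.0833). By mean signal it ranked 5 of all 26244 sites, and it had a summit above the 99th percentile of its own list in every library. The Zfp568 intron site named above ranked 14. Next came the site 796 bp into Zfp651, a gene also named Zbtb47, with 9.29 and 8.42 per the authors' deposited table. Promoter sites of Zfp511 (8.45 and 8.10, FDR 0.466) and Zfp397 (8.42 and 7.50, FDR 0.306) followed per the authors' deposited table. An exon 52.0 kb from the Zfp958 start had 8.14 and 7.75 per the authors' deposited table (FDR 0.394). The Zfp668, Zfp87 and Zfp398 promoters, given above, and an intergenic site of Zfp608 (7.30 and 7.50, FDR 0.756) per the authors' deposited table completed the 10. Summit support was uneven among the 10. All 4 libraries supported the sites of Zfp648, Zfp568, Zfp651, Zfp958, Zfp87 and Zfp608. The Zfp397 site was supported by 3 libraries, and those of Zfp511 and Zfp398 by 2 each. For Zfp668 the only supporting list was that of Paupar KD replicate 2. Of these 10 sites, only that of Zfp608 was not lower in Paupar KD in its mean, and only that of Zfp651 passed an FDR of 0.05.

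**Figure D3:**
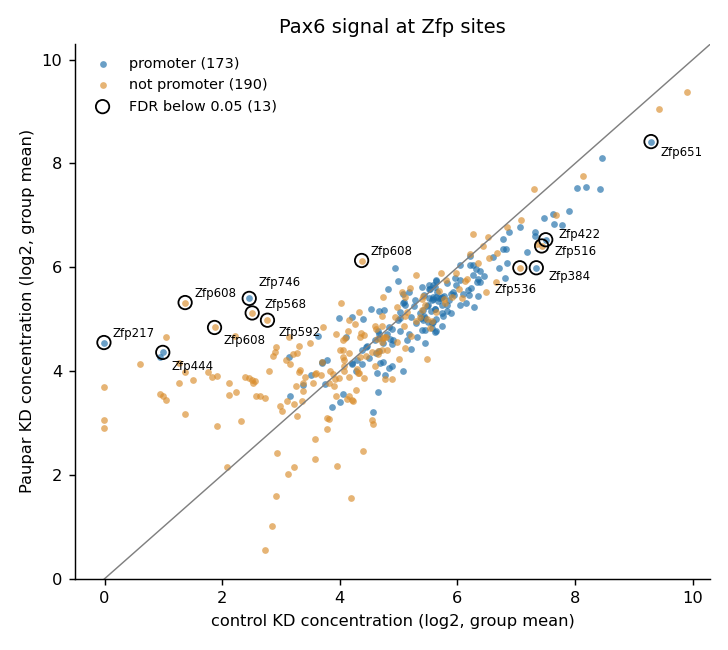
Each point is a Zfp site, with the authors' log2 concentration in control KD on the horizontal axis and in Paupar KD on the vertical axis; colour separates 173 promoter from 190 other sites, and rings mark the 13 sites with an FDR below 0.05. Ringed sites above the diagonal start from concentrations of 4.37 or less in control KD, and ringed sites below it from 7.06 or more.

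The comparison of the groups asked whether Pax6 signal at these sites differed after Paupar KD. Of 363 sites, 8 were called higher and 5 lower after Paupar KD (FDR below 0.05, per the authors' deposited table). Across all sites 3.26% were called higher and 0.846% lower, and 4.1% either way, so the members' shares of 2.2% and 1.38% were of the same order as the background. At promoters 3 of 173 were higher and 3 lower (background 1.57% and 1.39%, either way 2.95%), and outside promoters 5 of 190 were higher and 2 lower (background 3.9% and 0.641%, either way 4.54%). Without values per library no call could be refitted, and the FDR is the authors' own. At 8 Zfp sites and 1010 of all sites the listed FDR stood at its ceiling although the unadjusted p did not. All were in the lowest quartile of mean signal. They may stand outside the adjustment, and none could pass the threshold. At an unadjusted p below 0.05 there were 51 of the 363 Zfp sites, against 17.3% of all sites, per the authors' deposited table.

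Of the 5 lower sites, 3 lay at promoters. The Zfp651 site (chr9:121760829-121760928) went from 9.29 to 8.42, a log2 change of -0.87 (FDR 0.000777), per the authors' deposited table. It had summits in all 4 libraries, with scores of 245 and 113 in control KD replicates 1 and 2 and 78.8 and 143 in Paupar KD replicates 1 and 2. Scores were read here as −log10 q-values and are comparable only within a list. Each of these 4 lay above the 96th percentile of its own list. Zfp384, which encodes the nuclear matrix factor CIZ, went from 7.34 to 5.99 at a site 191 bp upstream of its start (chr6:125008855-125008954), a log2 change of -1.35 (FDR 0.00939), per the authors' deposited table. A summit was found there in both control KD libraries and in Paupar KD replicate 1, with none in Paupar KD replicate 2. The promoter of Zfp422, known in human as ZNF22, went from 7.50 to 6.53 (FDR 0.0228) per the authors' deposited table, although a summit was called in control KD replicate 2 alone.

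The other lower sites were intronic. Zfp516, an activator of brown fat genes, had 7.43 (control KD) and 6.41 (Paupar KD) at a site 7.17 kb into the gene, in intron 1 of 5 (FDR 0.0309) per the authors' deposited table, with summits in all 4 libraries above the 92nd percentile of each list. Zfp536, a repressor of neuronal differentiation, had 7.06 and 5.99 in intron 4 of 6, 145 kb from its start (FDR 0.0303), per the authors' deposited table, with a summit in control KD replicate 1 alone.

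Of the 8 higher sites, 7 had a control KD concentration of 2.77 or less, and the other, at Zfp608, had 4.37, close to the median of 4.34 over all sites, per the authors' deposited table. Zfp608 held 3 of them, all intergenic: 213 kb upstream (1.37 and 5.32, FDR 0.00198), 146 kb upstream (1.87 and 4.84, FDR 0.0284) and 275 kb downstream of the start (4.37 and 6.13, FDR 0.00670), per the authors' deposited table. The first and second had summits in both Paupar KD libraries and neither control KD library, and the last had summits in all 4. Zfp746, which encodes the repressor PARIS, rose from 2.46 to 5.40 (FDR 0.0105) at a site 1.69 kb before its start, per the authors' deposited table, and only Paupar KD replicate 1 had a summit there. Zfp217, a CoREST-associated factor gene, was listed at the floor (-0.01) under control KD against 4.55 under Paupar KD at a promoter-annotated site 2.81 kb from the assigned start (FDR 0.0163) per the authors' deposited table, with summits in both Paupar KD libraries. In intron 4 of 9 of Zfp568 a second site (chr7:29995130-29995229) had 2.51 and 5.12 (FDR 0.0216) per the authors' deposited table, again with summits in both Paupar KD libraries alone. It lay 14.7 kb from the strong Zfp568 site. A further Zfp444 site, 1.68 kb from the one printed, had 0.99 and 4.36 (FDR 0.0438) per the authors' deposited table and only Paupar KD replicate 1 had a summit there. Zfp592, a partner of Zfp687, had 2.77 and 4.98 in intron 1 of 9 (FDR 0.0455) per the authors' deposited table and only Paupar KD replicate 2 had a summit there. Thus 3 of the 8 higher sites had a summit in a single library. For the sites listed at the floor or near it, the size of the change is uncertain.

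Sites just outside the threshold lay on both sides. Zfp689 (0.95 and 4.28, FDR 0.0536) and the Zfp532 promoter (7.19 and 6.29, FDR 0.0603) were the nearest per the authors' deposited table, and 8 sites in all had an FDR from 0.05 to 0.10, of which 5 had a lower mean in Paupar KD. By size among sites above the table's median signal, 4.42, the next after Zfp384 on the low side were Zfp462 (-1.25, FDR 0.180), Zfp239 (-1.08, FDR 0.367), the Zfp536 site and Zfp579 (-1.05, FDR 0.101), as log2 changes per the authors' deposited table. On the high side, after Zfp746 (2.93) and Zfp608 (1.76), stood Zfp831 (1.30, FDR 0.228), Zfp324 (1.05, FDR 0.194) and Zfp663 (1.04, FDR 0.414), as log2 changes per the authors' deposited table; these 3 did not pass.

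As a set, Zfp sites had a median log2 change of -0.15, with 212 below 0 and 146 above, against -0.03 over all sites, per the authors' deposited table. Promoter sites had -0.31, with 122 of 173 below 0 (70.5%), against -0.23 and 64.3% over all promoter sites, and sites outside promoters 0.065 against 0.08, per the authors' deposited table. The median log2 change varied with signal: by quartile of mean concentration over the whole table it was 0.915, 0.17, -0.175 and -0.40 for Zfp sites and 0.72, 0.20, -0.12 and -0.36 for all sites, from lowest to highest, per the authors' deposited table. Zfp sites were unevenly spread over these quartiles, with 58, 80, 106 and 119 sites. Among promoter sites of the highest quartile both sets had a median of -0.42 per the authors' deposited table. No test of the set was made.

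**Figure D4:**
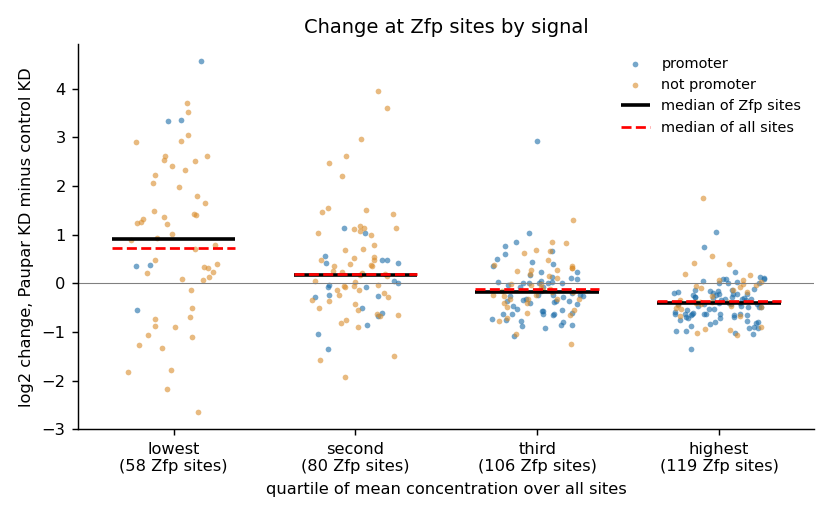
Points are Zfp sites, placed by quartile of mean concentration over all 26244 sites, with the authors' log2 change (Paupar KD minus control KD) on the vertical axis; solid lines are medians of Zfp sites and dashed lines medians of all sites. The medians run from 0.915 to -0.40 for Zfp sites and from 0.72 to -0.36 for all sites.

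Genes with many sites varied within themselves. Zfp608, a C2H2 gene, had 27 sites over 634 kb upstream to 275 kb downstream of its start. Of these, 11 were labelled intronic, 11 intergenic and 2 in promoters, and an intron-labelled site lay 50.5 kb upstream. Over all 27 sites, control KD concentrations had a lowest, median and highest of 0.61, 4.32 and 7.30 per the authors' deposited table. In Paupar KD these were 2.15, 4.84 and 7.50, per the authors' deposited table. Log2 changes ran from -1.50 to 3.95, with 17 above 0 and 10 below per the authors' deposited table, and 8 sites had a summit in all 4 libraries. The strong sites 560 kb, 557 kb and 389 kb upstream (7.08 and 6.91, 6.65 and 5.72, 6.85 and 6.77) were not called (FDR 0.813, 0.114 and 0.930), per the authors' deposited table. So the called rises of Zfp608 stood among strong sites that did not pass.

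Zfp516 showed the reverse balance, with 23 sites, 17 of them below 0 in log2 change and 6 above, per the authors' deposited table. Its strongest site, 2.98 kb from its start, had 7.47 and 6.95 (FDR 0.313) and lay 4.19 kb from the called one, per the authors' deposited table. Zfp536 had 18 sites, 12 below 0 and 6 above in log2 change, per the authors' deposited table; its promoter had 5.77 and 5.44 (FDR 0.758), per the authors' deposited table, and 8 sites were intergenic. Zfp217 had 11 sites within 29.8 kb of its start, of which only the floor-listed site was called, and its strongest had 6.35 and 6.08 (FDR 0.761), per the authors' deposited table. Both Zfp608 and Zfp516 are on chromosome 18 and together held 50 of the 60 sites there.

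**Figure D5:**
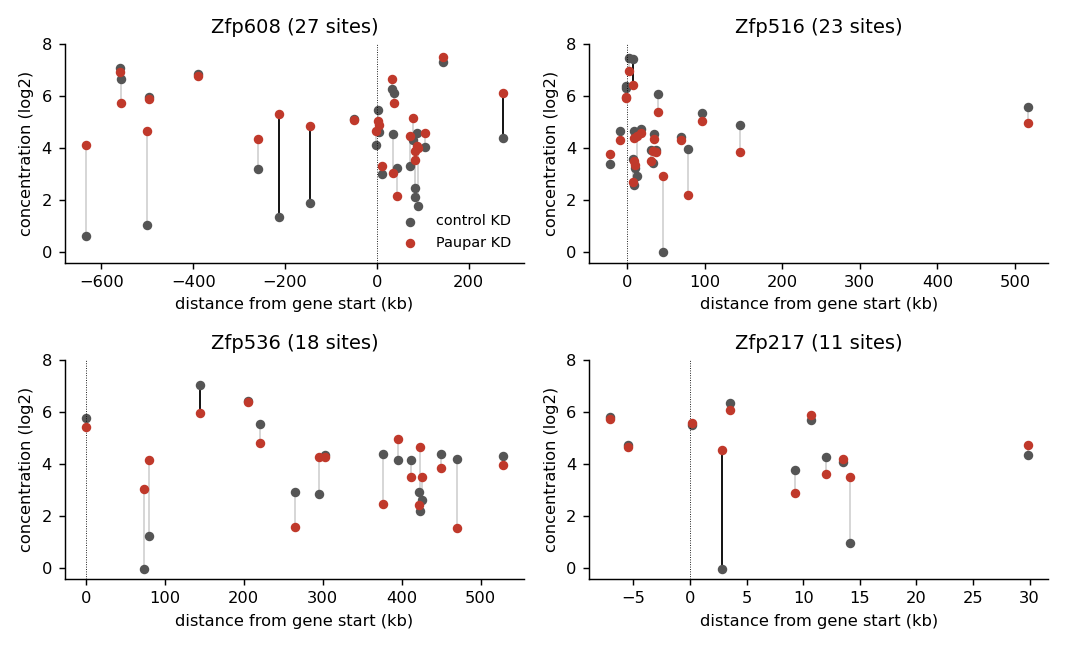
Each panel plots the sites of a gene against distance in kb from the start of the transcript the authors assigned, with the log2 concentration in control KD (grey) and Paupar KD (red) joined by a line, black where the FDR is below 0.05. Zfp608 has 3 black lines, all upward and intergenic, Zfp516 and Zfp536 1 downward each, and Zfp217 1 upward from the floor.

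The remaining genes with 4 or more sites were Zfp395 (9 sites), Zfp664 (7), Zfp90 (6), Zfp462, Zfp704, Zfp706, Zfp831 and Zfp950 (5 each), and Zfp169, Zfp281, Zfp362 and Zfp572 (4 each), the last a transcribed pseudogene. None of their sites was called, and the smallest FDR among them was 0.0958, at a site 38.1 kb upstream of Zfp90 with 7.36 and 6.45, per the authors' deposited table. Zfp950 had weak signal: 3 of its 5 sites had 1.37 to 1.92 in control KD and 3.88 to 3.98 in Paupar KD (FDR 0.218 to 0.321), per the authors' deposited table, each with a summit in a single Paupar KD library.

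By role, 13 of 16 Zfp genes listed as developmental regulators had a site, 72 sites in all. Of these sites 1 was higher and 3 lower, beside 3.26% and 0.846% over all sites, per the authors' deposited table. The role lists here and below were chosen with earlier results of these data known, so their counts of calls are descriptions only. An unadjusted p below 0.05 was listed at 11 of the 72, beside 17.3% over all sites, per the authors' deposited table. Beside Zfp217, Zfp384, Zfp516 and Zfp536, these included Zfp281, a GC-box factor, whose promoter had 7.62 and 7.02 (FDR 0.246), and Zfp219, a Sox9 partner, with 6.82 and 6.36 (FDR 0.484), per the authors' deposited table. Zfp423, a partner of Ebf factors, had 1 site with 5.01 and 4.23 (FDR 0.504), and Zfp143 had 6.88 and 6.67 at its promoter (FDR 0.798), per the authors' deposited table. No site was listed for Zfp800, a regulator of enteroendocrine differentiation, Zfp503 or Zfp703. Of 13 genes with roles in chromatin and silencing, 7 had 12 sites, with 2 higher (Zfp568 and Zfp592) and 0 lower (3.26% and 0.846% over all sites), and 5 at an unadjusted p below 0.05 (17.3% over all sites), per the authors' deposited table. The promoters of Zfp687 (6.35 and 5.45, FDR 0.156), Zfp638, a recruiter of the HUSH complex (6.26 and 5.86, FDR 0.633), and Zfp827, a NuRD recruiter (6.21 and 6.22, FDR 0.999), did not pass, per the authors' deposited table. No site was listed for Zfp57 or Zfp445, which maintain imprints, for Zfp809, which silences murine leukaemia virus, or for Zfp42, Zfp410 and Zfp932.

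Zfp genes whose proteins act on RNA or in protein quality control had 11 sites at 6 of 10 genes. Of these 0 were called by the authors' FDR and 0 had an unadjusted p below 0.05 (4.1% and 17.3% over all sites), per the authors' deposited table. Zfp36 had 3 promoter sites, the strongest with 6.04 in both groups (FDR 0.998), and Zfp207, a spindle protein gene, had 5.03 and 4.78 (FDR 0.884), per the authors' deposited table. The partners that KRAB proteins work through were looked up beside them, as 18 genes. Sites were listed at 8, with 16 sites, of which 0 were called by the authors' FDR and 1 had an unadjusted p below 0.05 (again beside 4.1% and 17.3%), per the authors' deposited table. That was the promoter of Setdb1, the methyltransferase named above, with 7.24 and 6.59 (FDR 0.211), the strongest of the list, per the authors' deposited table. No site was listed for Trim28.

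The peak lists gave the only values per library. A summit within 250 bp was found at 186 and 137 of the 363 Zfp sites in control KD replicates 1 and 2 and at 206 and 248 in Paupar KD replicates 1 and 2. Both Paupar KD libraries stood above both control KD libraries, the Paupar KD mean being 227 ± 29.7 (SD, n = 2) and the control KD mean 161.5 ± 34.6 (SD, n = 2). The difference of 65.5 sites was tested by exact permutation of the libraries (two-sided, p = 0.33), and 2 against 2 can give no smaller value. The libraries' lists differed in length, from 9983 to 17942 summits, and with the same number of top summits taken from each the difference was -0.5 sites. As shares, the 4 libraries in that order covered 51.2%, 37.7%, 56.7% and 68.3% of Zfp sites and 13112, 9148, 14270 and 16572 of all 26244 sites. A summit was found at 79.5 ± 7.78 Zfp promoter sites under control KD and at 118.5 ± 20.5 under Paupar KD (SD, n = 2 each), a difference of 39 (exact permutation p = 0.33). In the same order, the 4 libraries covered 49.1%, 42.8%, 60.1% and 76.9% of Zfp promoter sites. They covered 48.6%, 35.8%, 50% and 72.1% of all promoter sites. No count with lists of equal length is given for promoter sites. All 4 libraries supported 81 Zfp sites (22.3%, against 5250 of all 26244 sites), 142 had a summit in 1 library (39.1% against 43.9%) and 12 in none. Sites with a summit in each Paupar KD library and in neither control KD library numbered 34 among Zfp sites (9.37% against 8.26%), and the reverse was seen at 5 (1.38% against 1.47%). Read depth of the libraries is not given in the sources used here, so no counting interval could be set.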

How the data were processed

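Bowtie2, MACS2, DiffBind and ChIPseeker (no versions named) and mm10 are recorded per the submitters' processing notes. How libraries were scaled, which test was run and how input entered it is not given in the sources used here. A site table deposited by the authors holds log2 concentrations per group, a log2 fold (control KD minus Paupar KD, whose sign was turned here), p-values and an FDR; the log2 scale was read from the values. A −log10 FDR column of the authors was not used. Summit scores in the deposited lists, 1 list per library, were read as −log10 q-values. For control KD replicate 2, the file's own replicate number differs from the title, and the sample record was followed. Sites at or below 0 were called listed at the floor. Members, role lists and tests were chosen with earlier results of these data known. Named genes were those with a site called at an FDR below 0.05, the 10 strongest sites, the 5 largest changes each way above the median signal, genes with at least 4 sites, role-list genes (of which not all are printed) and the strongest site per cluster (printed for clusters of 10 or more genes). Genes shown only for their sequence, such as Zfp146 and Zfp317, were chosen after their values were seen. Clusters and promoter windows come from RefSeq tables of GRCm38.p6; 182 of 182 member genes matched by ID, and 150 had a promoter window. Windows on chromosome 18 were not used here, so the Zfp sites there stand outside every window and motif count. Summits were matched within 250 bp. The summit match and motif search were tested on simulated data. Python 3.11.15, pandas 2.3.3, numpy 2.4.6 and SciPy 1.17.1 were used. Alternatives covered the FDR threshold, symbol rule, subsets of sites, promoter and cluster definitions, summit window and score, and single libraries left out. The exact p-values come from regrouping or sign-flipping 2 libraries per group. They do not measure the spread between samples and say nothing beyond these samples. Some marker genes that were looked up are not reported here.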

Additional observations from a re-analysis of the deposited data

How the results depend on the processing

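Among 33 alternatives, 20 kept their side or stayed close, 12 moved and 1 turned. Higher Zfp sites, 8 in the report, numbered 2 at an FDR below 0.01 (0.551%, against 1.39% of all sites), 23 at an unadjusted p below 0.05 (6.34% against 10.7%), 5 with a summit in at least 2 libraries (2.39% against 4.4%), 5 within 10 kb of the start (2.29% against 2.1%) and 2 above the median signal (0.889% against 3.37%). Lower sites, 5 in the report, numbered 2 at an FDR below 0.01 (0.551% against 0.137%), 10 below 0.10 (2.75% against 1.8%), 28 at an unadjusted p below 0.05 (7.71% against 6.67%), 3 with at least 2 libraries (1.44% against 1.41%) and 5 above the median signal (2.22% against 1.65%). The median log2 change of -0.15 was -0.32 with the strongest site of each gene, against -0.23 over all genes. The promoter share of 47.7% was 41.0% within 1 kb and 75.3% for the strongest site per gene (43.8% over all genes). The difference in summit counts of 65.5 was -0.5 with lists of equal length, and the cause was not tested; it ranged from 41 to 90 with each library left out. With the replicate number as a block it stayed 65.5 (within-number differences of 20 and 111, exact sign-flip p = 0.5, the smallest 2 pairs allow); with 2 pairs and no shared source in the labels the numbers were not taken to pair the libraries. Group means and 2 libraries per group limit every comparison.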

Other observations

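Symbols that begin with Zfp but are not that stem and a number alone were outside the rule and added 25 sites, for 388 in all, of which 8 were higher and 6 lower after Paupar KD per the authors' deposited table. Zbtb, Zkscan and Zscan genes, other families with zinc fingers, had 58 sites at 34 genes, 23 of them in promoters (39.7%). Of these, 3 were higher and 0 lower at an FDR below 0.05, and 19 had an unadjusted p below 0.05, per the authors' deposited table. Over all sites 3.26% were higher, 0.846% lower and 17.3% had an unadjusted p below 0.05, and 51 of the 363 Zfp sites did; no difference between these was tested. Their promoter sites had median concentrations of 5.58 (control KD) and 5.15 (Paupar KD) per the authors' deposited table, close to the 5.50 and 5.20 of Zfp promoters; the difference was not tested.

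Zfp promoter sites whose own window held the Zfp143-type element numbered 31, with median concentrations of 5.50 for control KD and 5.18 for Paupar KD, and those without it 82, with 5.58 and 5.38, per the authors' deposited table. Called sites were 0 of the 31 and 3 of the 82, all lower, per the authors' deposited table. A further 60 promoter sites, with no window of their gene used within 1 kb, held the 3 higher calls and 0 lower, per the authors' deposited table. Over all promoter sites 1.57% were higher and 1.39% lower. The difference between these sets was not tested.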
